A study of Mus musculus with 14 samples.

Results

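The genes of cholesterol and fatty acid synthesis were followed across sorted fractions of FDCPmix, a mouse blood progenitor line that grows with interleukin-3 and can form several blood lineages. The list holds 31 genes, each found through the transcript accession of its array probes. Of these, 30 were measured among 31254 genes tested, all well above background on all 14 arrays, and Idi1, the isomerase of the mevalonate steps, was not analysed here. The sterol arm has 18 listed genes and 17 measured ones, 6 in the mevalonate steps and 11 from squalene to cholesterol. The fatty acid arm has 6 genes, the regulators are 5, and Ggps1 and Stard4 complete the list.

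Cholesterol is built from acetyl-CoA through mevalonate and farnesyl diphosphate to squalene, which is closed into lanosterol and then trimmed, reduced and rearranged to cholesterol. Fatty acids start from the same acetyl-CoA, which acetyl-CoA carboxylase and fatty acid synthase turn into palmitate for later elongation and desaturation. Both arms are known targets of the SREBP transcription factors, which Scap escorts out of the endoplasmic reticulum when sterols are low and which Insig proteins hold back when sterols are high. Dividing cells need both products for new membranes.

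RNA was measured on single-colour Agilent arrays in 5 groups of 1 line. The groups were Kit-Gr1- (3 samples), Gr1+ (3), Kit+Gr1-Sca1hi (3), Kit+Gr1-Sca1lo (3) and unfractionated cells (2), all grown in low-tyrosine Fisher's medium with 20% horse serum and 2% medium conditioned by WEHI cells as the interleukin-3 source. The fractions were separated by surface stain alone, so each may hold cells of several kinds, and fewer cells of a type and less RNA per cell cannot be told apart in them. The design text calls the samples biological replicates. Values are log2 signals relative to the 75th percentile of the same array, and levels are compared only within a gene.

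The gate markers ran with the labels. Kit lay between -2.05 and -1.62 in Kit-Gr1- cells, against -0.22 to 0.76 in the Kit+Gr1- groups, and Ly6c1, which carries part of the Gr1 antigen, lay between 5.73 and 6.72 in Gr1+ cells, against -2.27 to 0.92 in the Kit+Gr1- groups. Ly6a, the gene for Sca1, lay between -0.54 and 0.16 in Sca1hi cells and between -2.96 and -2.38 in Sca1lo cells. Gr1+ cells also carried both other gate transcripts, Kit at 0.43 to 0.97 and Ly6a at 2.57 to 3.05. In Gr1+ cells all 8 neutrophil granule markers, all 4 eosinophil markers, all 4 monocyte and macrophage markers tested and 4 of 6 mast cell and basophil markers were called higher than in Kit+Gr1- cells, while in Kit-Gr1- cells 5 of 8 red cell markers and 2 of 3 platelet markers were. The log2 of the summed neutrophil granule signals ran from 9.97 to 10.29 in Gr1+ cells, against 6.67 to 8.43 in Kit+Gr1- cells, and that of the red cell markers from 4.69 to 5.58 in Kit-Gr1- cells, against 1.31 to 2.52 in Kit+Gr1- cells. No marker listed was below background on every array of a group. The arrays came on 4 slides, and 3 of the 12 sorted arrays had a compressed signal range (an interquartile range of 2.37 to 3.42 log2 units, against 4.17 to 4.92 on the others): Gr1+ replicate 3, Sca1hi replicate 3 and Sca1lo replicate 3.

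**Figure D1:**
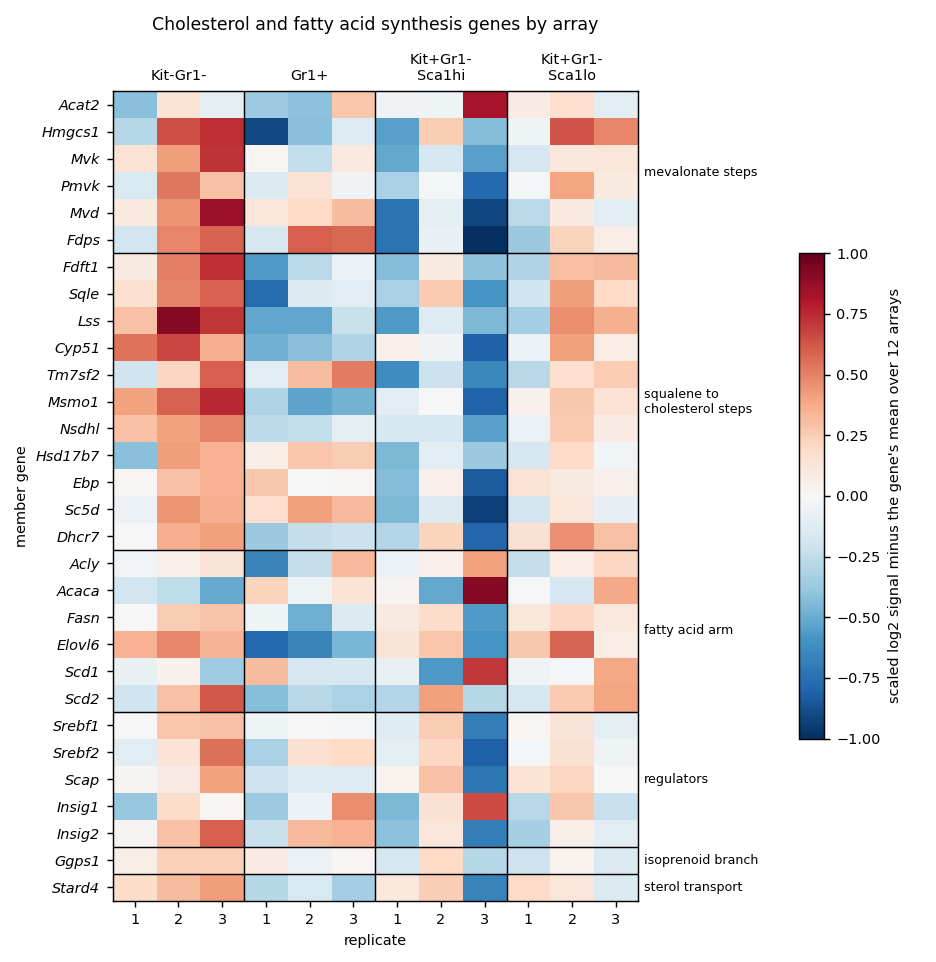
Scaled log2 signal of the 30 measured members on the 12 sorted arrays, as the deviation from each gene's mean over those arrays, with red above and blue below the mean. Columns are replicates within groups and rows are genes in pathway order; Kit-Gr1- replicates 2 and 3 are red over most of the sterol steps, and Sca1hi replicate 3, a compressed array, is the bluest column there.

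Between Kit-Gr1- and Gr1+ cells, part of the sterol arm and 1 fatty acid gene were higher in Kit-Gr1- cells. The 4 members that passed the test were Lss, Cyp51 and Msmo1, which act between squalene epoxide and the demethylated products of lanosterol, and Elovl6, which elongates palmitate. No member was lower. The calls made up 13.3% of the 30 members, beside 2.38% of all genes called higher and 2.64% called lower in Kit-Gr1- cells (limma, Benjamini-Hochberg adjusted p under 0.05 over all 31254 genes).

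Lss, lanosterol synthase, had log2 signals of 1.41, 2.02 and 1.83 in Kit-Gr1- cells, against 0.59, 0.59 and 0.89 in Gr1+ cells. All Kit-Gr1- values lay above all Gr1+ values, a difference of 1.06 ± 0.24 (SE) or 2.09-fold (adjusted p = 0.0211, limma, n = 3 each). In the Kit+Gr1- cells Lss stood at 0.55, 0.98 and 0.66 in Sca1hi and at 0.77, 1.58 and 1.46 in Sca1lo, so Sca1lo cells overlapped both of the others while the Sca1hi arrays all lay below the Kit-Gr1- arrays.

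Cyp51, the lanosterol demethylase, had log2 signals of 1.46, 1.59 and 1.29 in Kit-Gr1- cells, against 0.44, 0.50 and 0.62 in Gr1+ cells, a difference of 0.93 ± 0.23 or 1.90-fold (adjusted p = 0.0335, limma, n = 3 each). Its Sca1hi values were 0.97, 0.89 and 0.11, the lowest being the compressed array, and its Sca1lo values 0.86, 1.33 and 0.99. The groups Kit-Gr1- and Gr1+ were apart here too, with the Gr1+ arrays close together at the low end. All 3 Cyp51 probes pointed the same way, at 0.86, 1.03 and 0.93.

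Msmo1, the sterol methyl oxidase of later demethylation steps, had log2 signals of 5.13, 5.32 and 5.48 in Kit-Gr1- cells, against 4.43, 4.20 and 4.25 in Gr1+ cells, a difference of 1.01 ± 0.22 or 2.02-fold (adjusted p = 0.0188, limma, n = 3 each). The Kit-Gr1- arrays were above every other sorted array, since Msmo1 reached 4.62, 4.73 and 3.93 in Sca1hi and 4.77, 4.999 and 4.87 in Sca1lo cells. Msmo1 had a single probe, as had Elovl6.

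Elovl6 had log2 signals of 2.34, 2.47 and 2.33 in Kit-Gr1- cells, against 1.22, 1.33 and 1.54 in Gr1+ cells, a difference of 1.02 ± 0.23 or 2.03-fold (adjusted p = 0.0196, limma, n = 3 each). The Sca1hi values of 2.12, 2.27 and 1.39 and the Sca1lo values of 2.26, 2.58 and 2.06 lay near those of Kit-Gr1- cells, except for the compressed Sca1hi array. For this gene the Gr1+ arrays were the low ones.

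**Figure D2:**
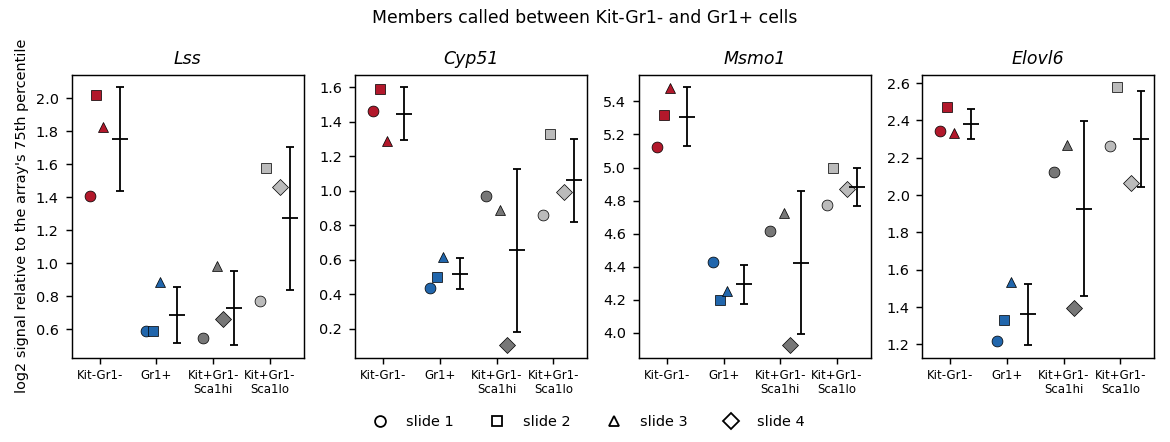
Log2 signal, relative to the array's 75th percentile, of Lss, Cyp51, Msmo1 and Elovl6 on each sorted array, with the slide as the symbol and the group mean ± SD (n = 3) beside the points. In each panel the 3 Kit-Gr1- points lie above the 3 Gr1+ points, and the Kit+Gr1- groups spread between or around them.

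Slides 1, 2 and 3 each held 1 Kit-Gr1- and 1 Gr1+ array, so the comparison could also be read within slides. With the slide as a block, 10 members were called higher in Kit-Gr1- cells and none lower, beside 7.77% of all genes called higher and 5.22% called lower in that fit. The 6 added members were Hmgcs1 (0.85 ± 0.13, adjusted p = 0.00308), which makes HMG-CoA, Fdft1 (0.74 ± 0.13, 0.00539), the squalene synthase, Sqle (0.75 ± 0.14, 0.00904), the squalene epoxidase, Nsdhl (0.60 ± 0.12, 0.0125), a sterol dehydrogenase of the demethylation steps, Dhcr7 (0.53 ± 0.15, 0.0499), the last reductase, and Stard4 (0.57 ± 0.14, 0.0265), a carrier of cholesterol between membranes. Without the block the adjusted p of these members ran from 0.0656 for Nsdhl to 0.294 for Dhcr7.

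The within-slide differences of these genes were positive on every slide. Hmgcs1 was higher in Kit-Gr1- cells by 0.62, 1.07 and 0.87 on slides 1, 2 and 3, Fdft1 by 0.65, 0.77 and 0.80, and Sqle by 0.93, 0.63 and 0.70. Lss followed at 0.82, 1.43 and 0.94, Cyp51 at 1.02, 1.09 and 0.67, and Msmo1 at 0.70, 1.12 and 1.23. Nsdhl was the most even, at 0.56, 0.65 and 0.59. Of the 17 sterol arm genes measured, 9 were higher in Kit-Gr1- cells on all 3 slides and none was lower on all 3. The share of all genes that did so was not counted. The median over all genes was -0.16, 0.04 and -0.32 on slides 1, 2 and 3. The Gr1+ array of slide 3 is a compressed one.

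For other enzymes of the same chain no difference between these fractions was detectable. Fdps, which makes farnesyl diphosphate, gave -0.04 (95% confidence interval -0.71 to 0.63), the sterol reductase Tm7sf2 -0.03 (-0.56 to 0.50), the keto-reductase Hsd17b7 -0.08 (-0.56 to 0.40), the isomerase Ebp 0.13 (-0.35 to 0.61) and the desaturase Sc5d -0.06 (-0.52 to 0.41). The intervals of Lss and Msmo1 began at 0.55 and 0.53. Those of Fdps and Ebp overlapped them, and those of Tm7sf2, Hsd17b7 and Sc5d lay below. Lss and Msmo1 were picked because they were called, and differences between genes were not tested. Within slides, Fdps ranged from -0.11 to 0.02 and Tm7sf2 from -0.09 to 0.09. Acat2, the thiolase at the head of the pathway, gave 0.04, and the mevalonate enzymes Mvk, Pmvk and Mvd gave 0.47, 0.23 and 0.25, none of them called.

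The median difference of the sterol arm was 0.47, with 13 of 17 genes above 0, beside a median of -0.20 over all genes, of which 66.6% lay below 0. Within slides the sterol arm median was 0.12, 0.60 and 0.59 on slides 1, 2 and 3. The calls rested on few arrays: no member was called when Kit-Gr1- replicate 2, Kit-Gr1- replicate 3 or Gr1+ replicate 2 was left out, 1 (Msmo1) without Gr1+ replicate 1, and 2 each without Kit-Gr1- replicate 1 (Lss, Msmo1) and without Gr1+ replicate 3 (Lss, Elovl6), while 6 were called without Sca1hi replicate 3. The number of all genes called also changed over these fits, as counted at the end, so the member counts alone are no measure. The Lss difference stayed between 0.93 and 1.24 over these fits, with an adjusted p of up to 0.112. The lineage markers given above differ between the same 2 fractions, and their part in the member differences was not tested. The log2 of the summed proliferation markers ran from 6.46 to 6.48 in Kit-Gr1- cells, against 5.61 to 6.199 in Gr1+ cells, and the part of proliferation was likewise not tested.

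**Figure D3:**
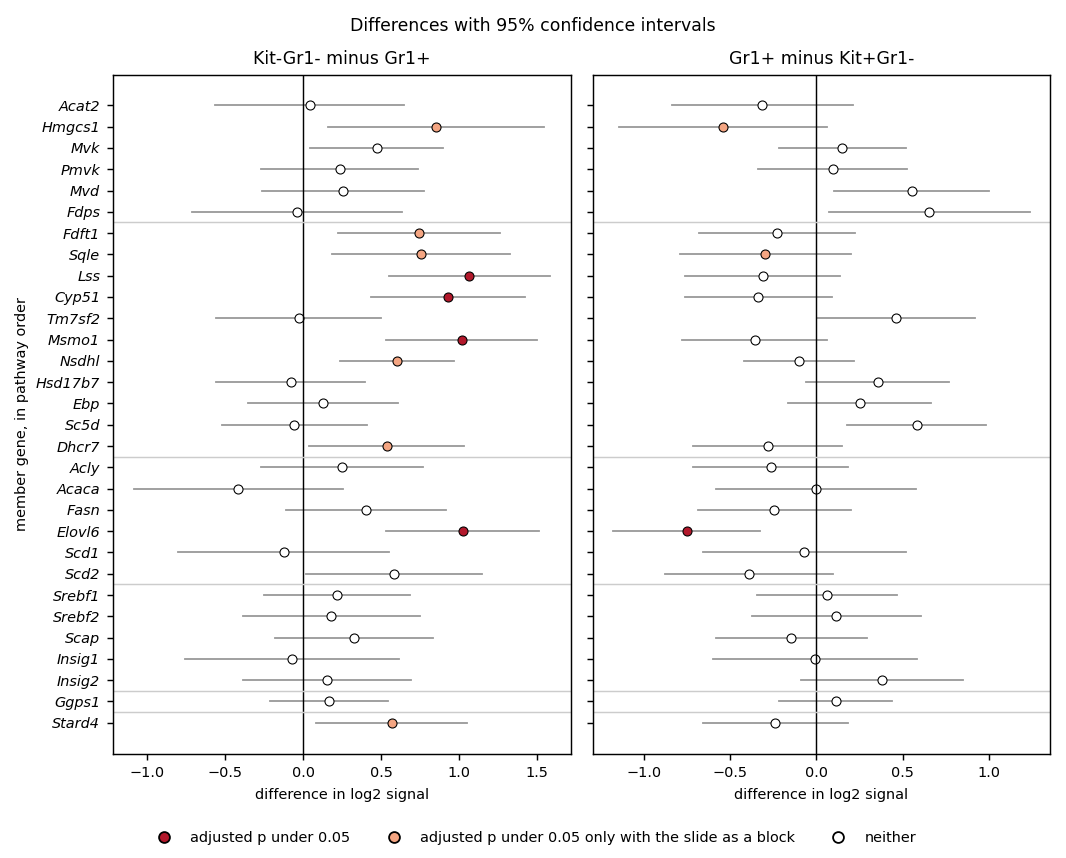
Difference in log2 signal of each measured member with its 95% confidence interval, for Kit-Gr1- minus Gr1+ cells (left) and Gr1+ minus Kit+Gr1- cells (right), in pathway order from Acat2 to Dhcr7 and then the fatty acid genes, regulators, Ggps1 and Stard4. Dark points passed the test, light orange points passed it only with the slide as a block; on the left Hmgcs1 and the genes Fdft1 to Cyp51, Msmo1 and Nsdhl lie right of 0 while Fdps, Tm7sf2, Hsd17b7 and Sc5d lie at it.

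The promoter windows of 6 members are shown because these genes carry the contrast: 3 called sterol genes, Hmgcs1, the fatty acid gene Elovl6, and Sc5d, whose signal hardly differed between the fractions. Each window holds 300 bases of RefSeq sequence on GRCm38.p6, from 250 bases before the start site to 50 after it, printed 5′ to 3′ on the gene's strand. Capitals mark matches on either strand to CCAAT, the box that NF-Y binds, to GGGCGG, the core of the GC box that Sp1 binds, and to TCACNCCAC, a form of the sterol regulatory element at which SREBP factors bind.
Hmgcs1, chr13:119690101-119690400 on the plus strand: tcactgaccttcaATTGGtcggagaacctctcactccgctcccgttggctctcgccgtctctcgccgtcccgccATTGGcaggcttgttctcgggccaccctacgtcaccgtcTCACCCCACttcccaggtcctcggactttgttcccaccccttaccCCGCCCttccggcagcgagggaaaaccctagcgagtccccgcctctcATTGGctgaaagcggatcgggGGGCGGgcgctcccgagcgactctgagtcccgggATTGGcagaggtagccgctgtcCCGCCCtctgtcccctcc
Lss, chr10:76531355-76531654 on the plus strand: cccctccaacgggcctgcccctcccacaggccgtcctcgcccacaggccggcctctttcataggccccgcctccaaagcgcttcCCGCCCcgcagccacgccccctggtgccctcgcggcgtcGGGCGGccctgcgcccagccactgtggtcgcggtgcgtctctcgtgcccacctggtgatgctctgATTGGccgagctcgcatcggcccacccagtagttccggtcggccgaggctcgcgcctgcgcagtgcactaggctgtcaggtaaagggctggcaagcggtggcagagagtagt
Cyp51, chr5:4104648-4104947 on the minus strand: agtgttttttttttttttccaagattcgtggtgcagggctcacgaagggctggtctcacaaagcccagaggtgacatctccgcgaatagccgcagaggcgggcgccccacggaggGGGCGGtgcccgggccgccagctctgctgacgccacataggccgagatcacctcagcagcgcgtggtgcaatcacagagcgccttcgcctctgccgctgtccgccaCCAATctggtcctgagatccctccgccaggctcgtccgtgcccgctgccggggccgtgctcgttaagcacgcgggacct
Msmo1, chr8:64733529-64733828 on the minus strand: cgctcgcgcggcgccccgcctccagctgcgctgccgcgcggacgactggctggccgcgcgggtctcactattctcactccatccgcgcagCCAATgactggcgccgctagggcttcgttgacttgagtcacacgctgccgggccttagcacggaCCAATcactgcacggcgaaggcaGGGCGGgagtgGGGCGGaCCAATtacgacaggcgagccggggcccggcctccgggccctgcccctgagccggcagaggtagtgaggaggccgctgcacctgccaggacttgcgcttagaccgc
Sc5d, chr9:42264251-42264550 on the minus strand: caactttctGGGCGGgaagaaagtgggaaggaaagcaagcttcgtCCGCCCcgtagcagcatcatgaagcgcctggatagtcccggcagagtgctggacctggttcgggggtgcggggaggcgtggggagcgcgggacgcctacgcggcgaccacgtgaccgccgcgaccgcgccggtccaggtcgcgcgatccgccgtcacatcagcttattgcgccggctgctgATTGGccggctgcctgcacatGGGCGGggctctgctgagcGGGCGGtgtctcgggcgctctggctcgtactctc
Elovl6, chr3:129532136-129532435 on the plus strand: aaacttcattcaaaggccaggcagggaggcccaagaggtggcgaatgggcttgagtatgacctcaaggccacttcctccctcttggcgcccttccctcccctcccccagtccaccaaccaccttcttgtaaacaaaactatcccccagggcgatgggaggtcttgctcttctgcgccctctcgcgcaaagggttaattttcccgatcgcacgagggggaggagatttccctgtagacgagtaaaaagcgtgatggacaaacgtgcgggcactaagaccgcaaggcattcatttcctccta
Windows were given for 25 of the 31 listed genes, Idi1 included. CCAAT was found in 21 of the 25 and GGGCGG in 20, with a gene counted if any of its windows held the motif, beside 41.1% and 38.2% of all 27025 genes in the table counted in the same way. In the sterol arm 14 of 15 genes held CCAAT and 14 of 15 held GGGCGG, in the fatty acid arm 2 of 4 and 1 of 4. TCACNCCAC was found in Hmgcs1 alone among the members, at positions -137 to -129 from the start site, and in 1.44% of all genes and 1.24% of the 32851 windows. No matches overlapped in the windows printed. The sterol genes that hardly differed, Sc5d, Tm7sf2, Hsd17b7 and Ebp, held CCAAT and GGGCGG as did Lss, Cyp51 and Msmo1, and the Elovl6 window held none of the 3.

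Set against the Kit+Gr1- progenitors, Gr1+ cells had less Elovl6 and no other called member. Elovl6 stood at 1.22, 1.33 and 1.54 in Gr1+ cells, and between 1.39 and 2.58 with a median of 2.19 in the 6 Kit+Gr1- samples, a difference of -0.75 ± 0.20 or 1.69-fold lower (adjusted p = 0.0348, limma, n = 3 against 6). The groups overlapped through the compressed Sca1hi array at 1.39. That 1 lower call among 30 members (3.33%) stands beside 2.82% of all genes called lower and 4.19% called higher in Gr1+ cells, a share near that of all genes. The call was lost in 10 of the 12 fits that left out 1 array, with an adjusted p of up to 0.173, and the difference ran from -0.89 to -0.67 over them. Without Sca1hi replicate 3, the compressed array, 4 members were called lower (Cyp51, Msmo1, Elovl6 and Stard4), and without Sca1hi replicate 2 Mvd and Sc5d were called higher. In a fit with the replicate number as a block, Elovl6 (adjusted p = 0.0206) was called lower and Sc5d (0.58 ± 0.16, adjusted p = 0.0441) higher. The number of all genes called also changed in these refits, as counted at the end. The shares above are therefore no measure for their member calls.

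With the slide as a block, Hmgcs1 (-0.69 ± 0.12, adjusted p = 0.00546), Sqle (-0.47 ± 0.13, 0.0467) and Elovl6 (-0.98 ± 0.12, 0.000967) were called lower in Gr1+ cells and no member higher, beside 9.59% of all genes called lower and 6.09% called higher in that fit. The sterol arm divided in this comparison. Fdps (0.65 ± 0.27), Sc5d (0.58 ± 0.19), Mvd (0.55 ± 0.21) and Tm7sf2 (0.46 ± 0.21) had positive differences, and Hmgcs1 (-0.54 ± 0.28), Msmo1 (-0.36 ± 0.19), Cyp51 (-0.34 ± 0.20), Lss (-0.31 ± 0.21) and Sqle (-0.30 ± 0.23) negative ones, with no call among them in the fit without a block. The sterol arm median was -0.10, with 8 of 17 genes above 0, beside a median of -0.04 over all genes. In the fatty acid arm all 6 genes had differences below 0, from -0.75 for Elovl6 to -0.0032 for Acaca, with a median of -0.25, although Acaca (0.31) and Scd1 (0.22) were above 0 with the slide as a block. This comparison shares the Gr1+ arrays with the one between Kit-Gr1- and Gr1+ cells, so their values are not independent.

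In Kit-Gr1- cells compared with Kit+Gr1- progenitors no member was called, beside 0.323% of all genes called in either direction. In the sterol arm 16 of 17 genes nevertheless had positive differences, with a median of 0.50. The median over all genes was -0.23, and 69.2% of them lay below 0. Among the Kit+Gr1- arrays Sca1hi replicate 3 and Sca1lo replicate 3 are compressed, and 26 of the 30 measured members lay above the 75th percentile. Without the compressed arrays the median over all genes was -0.08. The part of compression in the sterol arm median was not tested. The largest was Mvd, the diphosphomevalonate decarboxylase, at 0.81 ± 0.21 (adjusted p = 0.189, limma, n = 3 against 6). Mvd had 2.64, 2.99 and 3.405 in Kit-Gr1- cells, against 1.63 to 2.64 with a median of 2.36 in the Kit+Gr1- samples. The groups did not overlap but nearly touched, at 2.6407 and 2.6399. Mvk, Msmo1 and Nsdhl were the other sterol genes whose Kit-Gr1- arrays all lay above the Kit+Gr1- arrays, with differences of 0.62 ± 0.17, 0.66 ± 0.19 and 0.50 ± 0.15. Over all genes 3.43% had their Kit-Gr1- arrays all above the Kit+Gr1- arrays. Acat2, at -0.27 ± 0.24, was the exception to the direction, and the only sterol gene measured with a mean level (-0.65) below the 75th percentile. Mvd was called when Sca1hi replicate 2 was left out. With the slide as a random block Mvk (0.59 ± 0.12, adjusted p = 0.0391), Mvd (0.70 ± 0.14, 0.0288) and Lss (0.72 ± 0.15, 0.0334) were called higher. With array weights 19 members were called higher. Both fits also called more of all genes, as counted at the end, so the 0.323% above is no measure for these member calls. The weights were uneven, at 5.69 for Kit-Gr1- replicate 2 against 1.01 and 0.95 for replicates 1 and 3. Sca1hi replicate 1 had 5.21, against 0.27 and 0.10 for replicates 2 and 3.

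The fatty acid arm had a median of 0.07 in the same comparison, with 3 of 6 genes on either side of 0. Acaca, acetyl-CoA carboxylase, gave -0.42 ± 0.27 and Fasn, fatty acid synthase, 0.16 ± 0.21, with -0.23 for its second probe. The sterol arm median within slides was 0.37 on slide 1, 0.20 against the Sca1lo array of slide 2 and 0.49 against the Sca1hi array of slide 3, and with the slide as a block it was 0.36. The direction of the fatty acid arm changed with the scaling, to -0.078 under quantile normalization, and it was below 0 also with normexp correction, with unscaled values and with probes averaged, while that of the sterol arm did not (0.31).

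Within the Kit+Gr1- compartment, Sca1hi and Sca1lo cells gave no called gene of any kind (0% of all genes, limma, with 291 genes at an unadjusted p under 0.05). The sterol genes nonetheless leaned one way: 16 of 17 had lower values in Sca1hi cells, with a median of -0.46 beside -0.03 over all genes. Hmgcs1 gave -0.59 ± 0.32, Dhcr7 -0.59 ± 0.23, Fdps -0.58 ± 0.31 and Lss -0.54 ± 0.24, each with an adjusted p of 0.999. Pmvk, Msmo1, Nsdhl and Ebp were the members whose Sca1hi arrays all lay below the Sca1lo arrays, as did those of 1.73% of all genes. With a replicate block 2 genes were called, neither of them a member. The sterol arm median was -0.28 on slide 1 and -0.85 on slide 4, where both arrays were compressed, and -0.31 without the compressed arrays.

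The 2 arms were set against each other on each array by the mean deviation of their genes. In this contrast a constant added to an array cancels, but a compressed signal range need not. The sterol arm mean was 0.34 ± 0.28 (SD, n = 3) in Kit-Gr1- cells, -0.10 ± 0.15 in Gr1+ cells, -0.33 ± 0.29 in Sca1hi cells and 0.10 ± 0.20 in Sca1lo cells. The fatty acid arm mean was 0.07 ± 0.08 in Kit-Gr1- cells, -0.21 ± 0.11 in Gr1+ cells, 0.01 ± 0.07 in Sca1hi cells and 0.13 ± 0.14 in Sca1lo cells. The sterol arm mean thus differed among the groups by more than the fatty acid arm mean did. It also spread more between replicates of Kit-Gr1- and Sca1hi cells. On slide 4, where both arrays were compressed, Sca1hi minus Sca1lo cells gave a sterol arm median of -0.85. There the brighter fatty acid genes Fasn (-0.68), Elovl6 (-0.67) and Scd2 (-0.69) were also lower. The dimmer Acly (0.19), Acaca (0.53) and Scd1 (0.32) were higher, as was Acat2 (0.94), the dimmest sterol gene. The part of signal brightness in the contrast between the arms was not tested.

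The sterol minus fatty acid value was 0.04, 0.32 and 0.44 in Kit-Gr1- cells, -0.03, 0.23 and 0.14 in Gr1+ cells, -0.36, 0.01 and -0.68 in Sca1hi cells and -0.11, 0.13 and -0.13 in Sca1lo cells. Kit-Gr1- cells were all above 0, and the Gr1+ values overlapped theirs, although on each of slides 1, 2 and 3 the Kit-Gr1- value was the higher one. The lowest value, -0.68, was the compressed Sca1hi array. On slide 1, which held all 4 sorted groups, the order was Kit-Gr1-, Gr1+, Sca1lo and Sca1hi.

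**Figure D4:**
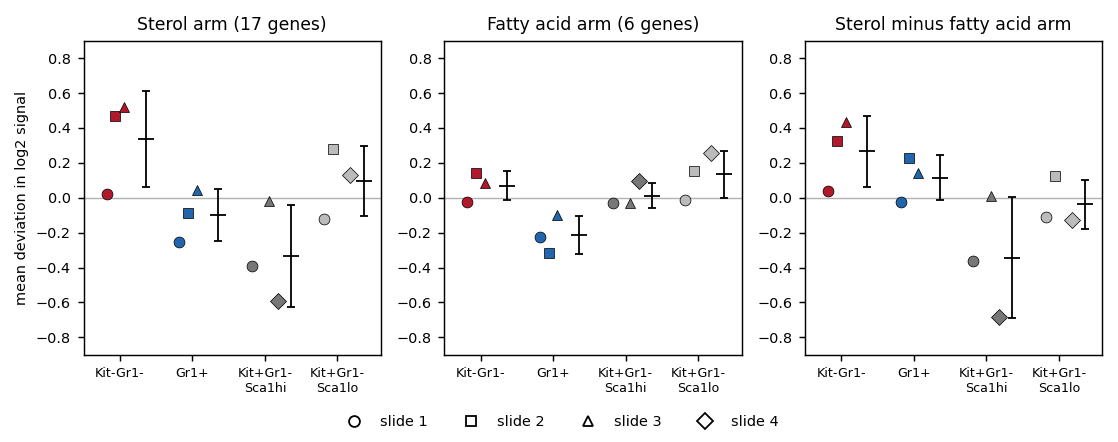
Mean deviation in log2 signal of the 17 sterol arm genes, of the 6 fatty acid arm genes, and of the first minus the second, for each sorted array, with the slide as the symbol and the group mean ± SD (n = 3) beside the points. Kit-Gr1- arrays lie highest in the sterol panel on slides 1, 2 and 3, Gr1+ arrays lie lowest in the fatty acid panel, and in the contrast panel Kit-Gr1- and Gr1+ arrays overlap.

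Within the fatty acid arm the genes went separate ways between Kit-Gr1- and Gr1+ cells. Scd2, a desaturase that makes oleate, had 4.23, 4.72 and 5.05 in Kit-Gr1- cells, against 4.00, 4.15 and 4.11 in Gr1+ cells, a difference of 0.58 ± 0.26 without a call (adjusted p = 0.326, limma, n = 3 each). Its paralogue Scd1 gave -0.13 ± 0.31. Fasn gave 0.40 ± 0.24 and Acly, the citrate lyase that supplies cytosolic acetyl-CoA, 0.24 ± 0.24. Acaca was the only member lower in Kit-Gr1- cells on all 3 slides, at -0.41, -0.20 and -0.65, and gave -0.42 ± 0.31 overall (adjusted p = 0.679).

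None of the 5 regulators was called in any comparison. With the uneven array weights, which also called far more of all genes, Srebf1 (adjusted p = 0.0286) and Insig2 (0.00649) were called higher in Kit-Gr1- than in Kit+Gr1- cells. Srebf1 gave 0.22 ± 0.22, Srebf2 0.18 ± 0.26 and Scap 0.33 ± 0.23 between Kit-Gr1- and Gr1+ cells. Insig2, whose product retains the SREBP complex, gave 0.53 ± 0.22 between Kit-Gr1- and Kit+Gr1- cells (adjusted p = 0.689) and 0.15 ± 0.25 between Kit-Gr1- and Gr1+ cells. Insig1 gave -0.07 ± 0.32 between Kit-Gr1- and Gr1+ cells, but its second probe gave 0.27, so no direction is given for it. Ggps1, which branches to geranylgeranyl diphosphate, gave 0.17 ± 0.17. Array signal reports transcript level alone, and the processed forms of SREBP proteins were not measured.

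Several probes were read for 16 of the 30 members. Between Kit-Gr1- and Gr1+ cells the 2 probes of Lss gave 1.06 and 0.85, those of Hmgcs1 0.85 and 0.56, those of Dhcr7 0.53 and 0.63, and the 3 of Nsdhl 0.60, 0.61 and 0.66. Fdft1 disagreed, with 0.74 for the brighter probe used and -0.44 for a dim one, and its direction is therefore that of 1 probe. Those of Insig2 gave 0.15 and -0.04, so no direction is given for it there.

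Of 21 other sterol and SREBP pathway genes tested, 5 were called higher and 1 lower in Gr1+ than in Kit+Gr1- cells, beside 4.19% of all genes called higher and 2.82% called lower. Soat1, the acyl transferase that esterifies cholesterol for storage, had 0.97, 1.52 and 1.48 in Gr1+ cells, against -1.01 to -0.73 in Kit+Gr1- cells, a difference of 2.23 ± 0.18 (adjusted p = 1.59e-05, limma, n = 3 against 6). Soat1 was apart between the groups on every array and was called in all 12 fits that left out 1 array.

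In the same list Lipa, the lysosomal acid lipase, rose in Gr1+ cells by 1.05 ± 0.19 (adjusted p = 0.00396), and so did the lysosomal sterol carriers Npc1, by 0.92 ± 0.19 (0.00845), and Npc2, by 0.95 ± 0.26 (0.0478). Npc2 lost its call in 9 of the 12 fits without 1 array. Cnbp, a nucleic acid binding protein once described as a sterol element binder, fell by 0.79 on the log2 scale (0.029), a call lost in 7 of the 12 fits.

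Among 10 sterol export and LXR genes 1 was called in Gr1+ against Kit+Gr1- cells, a share near the 7.01% of all genes called in either direction. Abcg1, a sterol exporter, had 0.37, -0.06 and -0.44 in Gr1+ cells, against 0.29 to 1.82 in Kit+Gr1- cells, a difference of -1.42 ± 0.31 (adjusted p = 0.0137, limma, n = 3 against 6). Between Kit-Gr1- and Gr1+ cells it differed by 2.27 ± 0.36 (adjusted p = 0.00222). Abca1, the other main exporter, gave -0.16 ± 0.30 in Gr1+ against Kit+Gr1- cells, and that value was not called.

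Of 33 other fatty acid genes tested, 5 were called higher and 4 lower in Gr1+ than in Kit+Gr1- cells, beside the same 4.19% and 2.82% of all genes. Those higher included both enzymes that make triglyceride from diglyceride. Dgat2 had 2.63, 3.96 and 3.71 in Gr1+ cells, against -1.11 to 0.13 in Kit+Gr1- cells, a difference of 3.72 ± 0.29 (adjusted p = 1.05e-05), and Dgat1 had 2.32, 3.35 and 2.94 in Gr1+ cells, against -0.13 to 0.39 in Kit+Gr1- cells, a difference of 2.67 ± 0.22 (adjusted p = 1.59e-05). Acsl1, which activates fatty acids (1.52 ± 0.23), Agpat2, of phosphatidic acid synthesis (1.03 ± 0.19), and the transcription factor Mlx (0.90 ± 0.18) were also higher. The desaturases of polyunsaturated fatty acids Fads1 and Fads2 and their family member Fads3 were lower, with Fads1 at -0.74 ± 0.16, Fads2 at -0.85 ± 0.16 and Fads3 at -1.89 ± 0.34, and so was the acyl-CoA synthetase Acsl3 at -0.77 ± 0.15.

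Between Kit-Gr1- and Gr1+ cells 7 of the 33 other fatty acid genes were called higher in Kit-Gr1- cells and 6 lower. These shares stand beside 2.38% of all genes called higher and 2.64% called lower. Beside Fads1 (0.98), Fads2 (1.11) and Fads3 (2.12), those higher were Agpat3 (1.64), Acss2, the cytosolic acetyl-CoA synthetase (1.13), Acsl5 (0.93) and Slc25a1, the citrate carrier that exports the carbon for both arms from mitochondria (0.90). Those lower were Dgat2 (-3.89), Dgat1 (-2.74), Acsl1 (-1.41), Agpat2 (-1.23), Hacd2 (-1.15) and Elovl7 (-1.08), and from the other sterol and SREBP list Soat1 (-2.44) and Lipa (-1.05) were lower and Cnbp (0.94) higher. Slc25a1 lost its call in 10 of the 12 fits without 1 array, Cnbp in 9, Elovl7 in 8 and Hacd2 in 6. The summed monocyte and macrophage markers ran from 0.99 to 2.38 in Kit-Gr1- cells and from 4.93 to 5.70 in Gr1+ cells, against 0.72 to 1.48 in Kit+Gr1- cells, and the summed adipocyte markers from -1.73 to -1.49 in Kit-Gr1- cells and from -1.75 to -0.06 in Gr1+ cells, against -2.02 to 1.02 in Kit+Gr1- cells. The summed eosinophil markers ran from 6.75 to 8.14 in Gr1+ cells, against -1.47 to 1.65 in Kit+Gr1- cells, and the neutrophil granule markers given above differed as well. The part of any of these cell types in the values of Dgat1, Dgat2 and Soat1 was not tested.

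**Figure D5:**
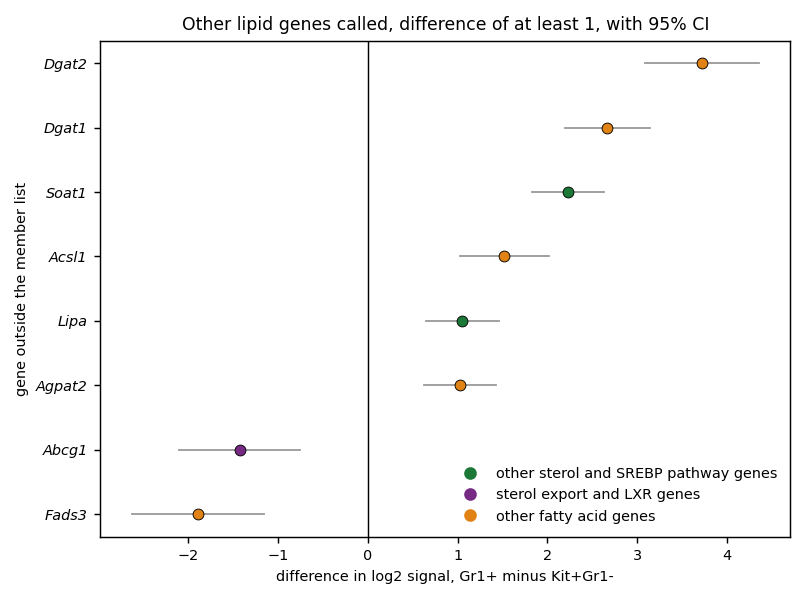
Difference in log2 signal, Gr1+ minus Kit+Gr1- cells, with 95% confidence intervals, for the 8 genes outside the member list that were called in this comparison with a difference of at least 1 in size, coloured by gene list. Dgat2, Dgat1 and Soat1 lie furthest right, between 2.23 and 3.72, and Abcg1 and Fads3 furthest left, at -1.42 and -1.89.

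In the unfractionated cells the arms could not be averaged usefully, since the 2 arrays did not resemble each other (r = 0.502 over all genes). Replicate 1, a compressed array, had a sterol arm mean of -1.95 and replicate 2 of 0.31, with fatty acid arm means of -0.66 and -0.14. Replicate 2 lay within the range of the sorted groups for Lss (1.58), Cyp51 (1.09), Msmo1 (4.85) and Elovl6 (2.06). These arrays entered no comparison.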

How the data were processed

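RNA of 14 samples was hybridised to single-colour Agilent arrays. Per the file headers the deposited spot intensity is Agilent Feature Extraction's processed signal, already background-corrected by the authors' scanner software. The deposited value table holds log2 of that intensity with no further scaling, as a comparison with the scanner values showed. Spots of a probe were averaged, log2 was taken and each array's 75th percentile subtracted. Probes detected (the scanner's own flag) on 3 or more of the 12 sorted arrays entered the fit, with 1 probe a gene, the brightest on average. limma 3.58.1 (lmFit, eBayes with trend, R 4.3.3) was fitted to the 12 sorted arrays over 31254 genes, with Benjamini-Hochberg adjustment and a call at an adjusted p under 0.05, and was tested on simulated data. Kit+Gr1- is the mean of its Sca1hi and Sca1lo groups. Normexp, an alternative, used median spot signals, since no mean signal column was found.

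The members and gene lists were chosen with earlier results of these data known. Any member could be named, with values per array for those called or differing by at least 1 and for a few others chosen after their values were seen. Genes of the other lists were named if called, with Abca1 added as a value. Some genes of the lists are not reported here. The number of arrays limits the precision. Alternatives changed the scaling, background correction, probe rule, filter, arrays and blocks. Deviations of same-numbered samples correlated at 0.591 to 0.832 in all 9 pairs among Gr1+, Sca1hi and Sca1lo cells. The replicates 3 of these groups are the compressed arrays, so paired samples and shared compression cannot be told apart. Over all sorted groups, the 36 pairs with different numbers ran from -0.813 to 0.603, the highest being Sca1hi replicate 1 with Gr1+ replicate 2. The labels do not say that the numbers mark pairs. Same-numbered Kit-Gr1- and Gr1+ samples correlated at -0.0121 to 0.154 in 3 pairs.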

Additional observations from a re-analysis of the deposited data

How the results depend on the processing

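The number of calls moved with scaling, blocks and single arrays, while no called gene result among 38 changed direction in any of 26 settings. Of these, 8 were called in all settings, none of them a member. Between Kit-Gr1- and Gr1+ cells Cyp51 lost its call in 11 of the 26 settings, Lss and Elovl6 in 8 each and Msmo1 in 6. Elovl6 lost its call in Gr1+ against Kit+Gr1- cells in 13. For Kit-Gr1- against Kit+Gr1- cells 101 genes and 0 members were called, for Gr1+ against Kit+Gr1- cells 2190 genes and 1 member, and for Kit-Gr1- against Gr1+ cells 1571 genes and 4 members. The counts below keep this order of comparisons. Array medians gave 42, 646 and 536 genes, with 0 members called in the second and the third. Quantile normalization gave 200, 3872 and 2677 genes, with 7 members in each of the second and the third. Normexp with quantile gave 254, 4086 and 3004 genes and 2, 7 and 8 members. The deposited unscaled values called 2 members in each of the second and the third comparison. All 14 arrays together gave 21, 654 and 498 genes and 0 members in the second and the third. Without the compressed arrays 4093 and 3375 genes were called in the second and the third. Array weights, refitted gene by gene after the default did not converge (chosen after seeing the data), gave 4506, 6115 and 5271 genes and 19, 8 and 12 members. The slide block gave 243, 4898 and 4058 genes and, in the second and the third, 3 and 10 members. The slide as a random block gave 435, 4803 and 4209 genes and 3, 3 and 12 members. No trend gave 28 genes in the first and 998 in the third, with 0 members in the second and 1 in the third. With Sca1lo cells alone as comparator 15 genes were called in the first comparison, and with Sca1hi cells alone 1408 genes and 0 members in the second. A 2-fold minimum left 1338 genes and 0 members in the second. The replicate block gave 288, 2841 and 2132 genes and 0, 2 and 6 members. Results of that fit are described above only for Gr1+ against Kit+Gr1- and for Sca1hi against Sca1lo cells. Whether the numbers mark pairs is not known. Leaving out 1 array gave 22 to 229, 895 to 4324 and 696 to 3586 genes and 0 to 1, 0 to 4 and 0 to 6 members. Between Sca1hi and Sca1lo cells 0 genes were called (limma, 291 at an unadjusted p under 0.05), against 167 genes and 1 member with array weights, 3 genes with either slide block, 2 with the replicate block and 0 to 1 without 1 array.

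The sterol arm median kept its direction under all of these settings. With array medians it was 0.82 in the first comparison and 0.77 in the third, and 0.26 in the first with unscaled values. The fatty acid arm median in the first was 0.39 with array medians, -0.078 with quantile, -0.063 with normexp and -0.17 with unscaled values. In the second it was -0.38, -0.36 and -0.46 with the last 3 of these and -0.40 without the compressed arrays. In the third it was 0.63 with array medians, 0.47 without the compressed arrays, 0.45 with array weights and 0.24 to 0.47 without 1 array. Between Sca1hi and Sca1lo cells it was -0.29, -0.025, -0.039 and 0.047 under these 4 scalings and -0.21 to -0.027 without 1 array. The median of all genes moved with the scaling, from -0.23, -0.04 and -0.20 to 0.09, -0.02 and 0.10 under array medians. The cause of these shifts was not tested.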
